A study of Mus musculus with 2 samples.

Results

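Oxidative phosphorylation is carried out by 5 protein complexes of the inner mitochondrial membrane, and 106 of the 32286 measured features in these data encode their subunits or the assembly factors of complex I. The members were taken by gene name: nuclear symbols beginning with Nduf, Sdh, Uqcr, Cox4 to Cox8 or Atp5, and mitochondrial symbols for Nd, Co, Atp and Cytb genes, with pseudogenes left out. Of these, 93 lie in the nuclear genome and 13 in the mitochondrial genome. The nuclear members comprise 36 subunits of complex I, 4 of complex II, 8 of complex III, 18 of complex IV and 17 of complex V, with 8 complex I assembly factors (Ndufaf genes) and the pair Ndufa4 and Ndufa4l2. Ndufa4 carries a complex I name but its protein is now placed in complex IV. The mitochondrial members comprise 7 subunits of complex I, 1 of complex III, 3 of complex IV and 2 of complex V.

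The study sorted bright tdTomato+ cells from the endosteal marrow of femur and tibia of male Adipoq-CreERT2;Ai9 mice and sequenced them in 1 chase and 1 pulse library with the 10x Genomics 3′ kit version 3.1. In these mice an Adipoq-driven, tamoxifen-dependent Cre recombinase turns on the tdTomato reporter for good in cells that express Adipoq and in their progeny. All mice were given tamoxifen at 8 weeks of age for 3 days. Chase mice were taken 4 weeks later and pulse mice 24 hours later, so chase mice were also older, and 4 mice were used in the series, with no statement of how many went into each library. Bright tdTomato+ cells made up 0.29% of the chase sample and 0.01% of the pulse sample. With 1 library per group there is no replicate and no test: age, time since labelling, sort yield and library cannot be told apart, and every interval given is an exact 95% interval that covers counting error only.

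Electrons from NADH enter the chain at complex I and those from succinate at complex II, pass through ubiquinone to complex III, through cytochrome c to complex IV and on to oxygen. Complexes I, III and IV pump protons, and complex V, the ATP synthase, uses the gradient to make ATP. Complex II is encoded wholly in the nucleus, whereas the other complexes join nuclear subunits, made in the cytosol and imported, to a core of subunits transcribed from mitochondrial DNA and made on mitochondrial ribosomes. The members therefore come from separate genomes with separate transcription machinery.

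After filtering, 8335 chase cells and 9212 pulse cells remained, with median depths of 7489 and 7772.5 unique molecular identifiers (UMIs, each a captured transcript). Cells were put in classes by marker gates that hold no member of the module. The main class was the CXCL12-abundant reticular (CAR) cells, the marrow stromal cells that express Adipoq and Lepr, with 3508 chase and 3430 pulse cells. The 7 CAR markers summed to 31845 counts per 1000000 UMIs (CPM) in chase CAR cells and 25427 in pulse CAR cells. Of the osteoblast markers, Ibsp and Mmp13 were also present in CAR cells, at 3996 and 851 CPM in chase and 1901 and 1416 in pulse, so cells past both gates were kept as a class of their own. Although the sort was for the reporter, many cells passed gates of blood or endothelial types. Cells past more than 1 gate, other than that pair, numbered 1169 in chase and 1014 in pulse, among them 380 and 136 past exactly the monocyte and granule progenitor gates, which were used as 1 class, a choice made after the gates were counted. The libraries shared 52 cell barcodes, of which 20 were among kept cells in both. All levels are CPM of the class's own UMIs. The 3′ kit yields 1 UMI per captured transcript end, so levels were not divided by gene length. Since the filter removed cells with 10% or more mitochondrial UMIs, and those UMIs come from exactly the 13 mitochondrial members, the mitochondrial side was capped in every cell while the nuclear side was not. The filter removed 566 chase and 553 pulse cells. Of these 135 and 128 were CAR cells, 50 and 75 osteoblasts (297 and 438 kept) and 15 and 3 erythroid cells (71 kept in each). The share removed thus differed between classes and, in erythroid cells, between libraries.

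Upstream sequences of nuclear members are shown first because nuclear members of many complexes moved together between the libraries, and the ends of 2 short mitochondrial genes because these genes lay at the extremes. RefSeq promoter windows (GRCm38.p6) of 250 bases before to 50 after the annotated start were at hand for 76 of the 93 nuclear members. The 8-base core of the NRF1 motif, GCATGCGC, was present on either strand in 12 of the 76 (15.8%), against 3.05% of 27025 genes with a window. The ETS motif bound by GABP, CCGGAAG, was present in 25% against 9.93%, the YY1 motif AAGATGGCG in 10.5% against 1.64%, and the ERR motif TCAAGGTCA in 2.63% against 0.466%. The full NRF1 palindrome, which contains the core on both strands, was present in 9.21% against 1.07%. Member windows averaged 57.8% G and C, against 53.8% over all windows. Below are the 150 bases before the start, 5′ to 3′ on the gene's strand, with NRF1 core or ETS matches in capitals, for Ndufa11 (chr17:56717612-56717761, plus strand) and Atp5k (chr5:108434400-108434549, minus strand), which hold the palindrome, for Cox5a (chr9:57521082-57521231, plus strand), the nuclear member with the lowest ratio in CAR cells, and for the pair Cox6b1 (chr7:30626115-30626264, minus strand) and Cox6b2 (chr7:4753095-4753244, minus strand), which differed across classes.
Ndufa11: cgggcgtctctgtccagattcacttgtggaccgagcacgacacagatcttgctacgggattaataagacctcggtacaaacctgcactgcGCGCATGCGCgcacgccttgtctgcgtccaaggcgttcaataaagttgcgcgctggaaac
Atp5k: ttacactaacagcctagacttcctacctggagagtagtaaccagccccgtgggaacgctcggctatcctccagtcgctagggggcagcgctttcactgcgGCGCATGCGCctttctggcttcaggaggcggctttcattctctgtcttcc
Cox5a: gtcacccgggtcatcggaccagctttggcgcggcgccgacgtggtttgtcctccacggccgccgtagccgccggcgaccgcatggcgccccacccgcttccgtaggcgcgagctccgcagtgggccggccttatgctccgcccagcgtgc
Cox6b1: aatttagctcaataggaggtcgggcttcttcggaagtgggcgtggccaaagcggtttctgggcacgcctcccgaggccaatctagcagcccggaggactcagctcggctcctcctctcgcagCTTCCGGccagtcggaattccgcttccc
Cox6b2: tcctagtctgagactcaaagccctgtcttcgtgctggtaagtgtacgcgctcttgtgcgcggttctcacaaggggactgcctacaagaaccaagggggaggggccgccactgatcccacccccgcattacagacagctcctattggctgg

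No NRF1 core or ETS match was found in the 150 bases before Cox5a or Cox6b2, and 1 ETS match, on the other strand, was found before Cox6b1. A match is a string of letters and was not shown to be a bound site. The 7 members with the palindrome had chase over pulse ratios in CAR cells from 0.643 (Ndufa11) to 0.789 (Uqcrc1). The median over all nuclear members tested was 0.768, and a link between motifs and ratios was not tested. The mitochondrial genes were taken from GRCm38 chromosome M. The last 60 bases of mt-Nd4l (chrM:10114-10173) and mt-Nd3 (chrM:9747-9806), both on the plus strand, are given with the 7 bases that mt-Nd4l shares with mt-Nd4 in capitals. mt-Atp8 and mt-Atp6 share 43 bases. Each of these pairs is known to be carried on a joint message. Read positions were not examined, so their part in the division of UMIs within a pair was not tested.
mt-Nd4l: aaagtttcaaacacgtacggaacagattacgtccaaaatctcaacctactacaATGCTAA
mt-Nd3: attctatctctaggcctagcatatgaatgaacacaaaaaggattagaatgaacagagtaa

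In CAR cells the nuclear members were lower in chase than in pulse, complex by complex, while the mitochondrial members summed to nearly the same level. Summed nuclear members held 14992 CPM in chase CAR cells and 19795 in pulse CAR cells, a ratio of 0.757 (0.754 to 0.761). Summed mitochondrial members held 34213 in chase and 34037 in pulse, a ratio of 1.005 (1.002 to 1.008). There were thus 2.28 mitochondrial UMIs per nuclear UMI in chase CAR cells and 1.72 in pulse CAR cells. A gene was called when it had at least 50 UMIs over both sides, differed at least 1.5-fold and had an interval that left out 1. Of the nuclear members, 89 reached 50 UMIs, and the other 4, Cox6a2, Cox7b2, Cox8b and Cox8c, are described with the isoforms. Of the 89 tested, 85 had a ratio below 1, 8 were called lower and 0 higher, where 6.52% of all 12650 genes tested were called lower and 6.72% higher. The count of 8 was 5 under median of ratios scaling, 5 in cells of 5000 to 10000 UMIs and 3 with mixed cells past the CAR gate added. The share called lower is near the background, and what set them apart descriptively was a shared shift of less than 1.5-fold: their median ratio was 0.768, against 0.982 over all genes tested.

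The summed nuclear subunits of complexes I to V had ratios between 0.732 and 0.868 in CAR cells. Complex I, where NADH is oxidised, held 5015 CPM in chase and 6491 in pulse (ratio 0.773), with all 36 below 1. Complex II held 245 and 283 (0.868), with 3 of 4 below 1. Complex III held 1367 and 1843 (0.742), with 8 of 8 below 1. Complex V held 4368 and 5966 (0.732), with 17 of 17 below 1. Complex IV held 3382 and 4337 (0.780), with 12 of 14 tested below 1, and the 8 assembly factors 192 and 242 (0.796), with all below 1. Complex II, the entry point for succinate, had the ratio nearest to 1.

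**Figure D1:**
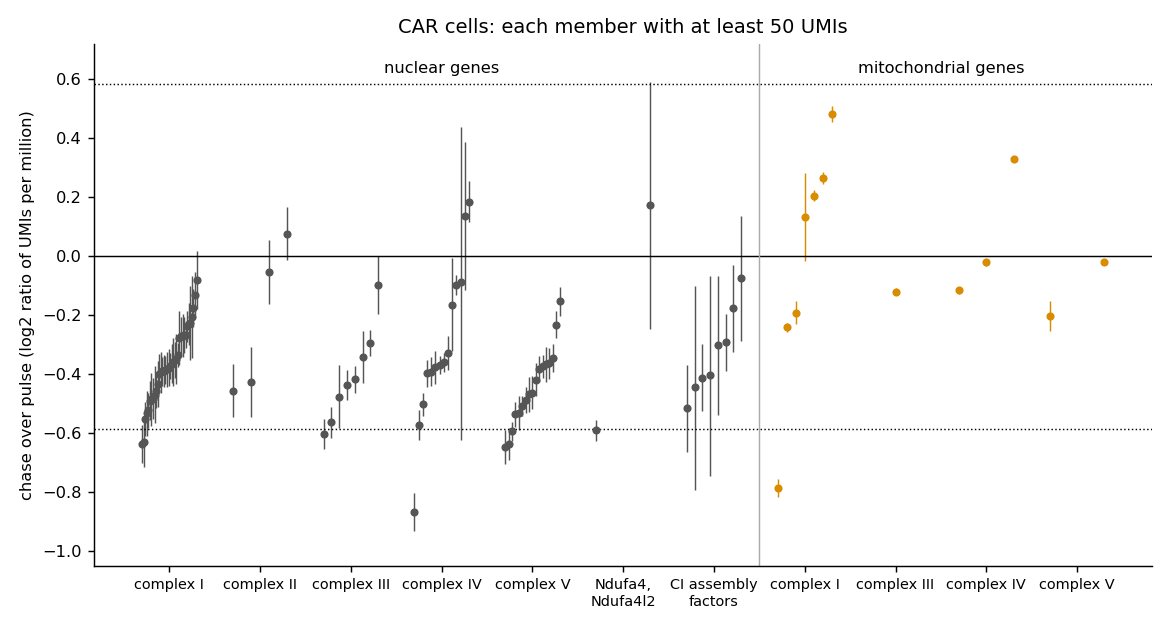
Log2 ratio of CPM, chase over pulse, in CAR cells for each member with at least 50 UMIs, ordered by ratio within its complex, nuclear genes left and mitochondrial genes right. Bars are exact 95% counting intervals, dotted lines mark 1.5-fold either way; 85 of 89 nuclear points lie below 0, and the mitochondrial points lie on both sides.

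The lowest nuclear member was Cox5a (chr9:57521274-57532426), a subunit of the cytochrome c oxidase holoenzyme, with 119 CPM in chase CAR cells and 218 in pulse CAR cells, a ratio of 0.549 (0.524 to 0.574). In complex V, Atp5g1, which encodes the c subunit of the rotor, held 167 and 262 (0.639), Atp5md, a small membrane subunit, 184 and 287 (0.643), and Atp5e, the epsilon subunit of the central stalk, 496 and 749 (0.663). The other genes that encode the c subunit, Atp5g2 and Atp5g3, had ratios of 0.787 and 0.726 and were not called. In complex I, the accessory subunits Ndufa11 and Ndufb6 were called lower, with 131 and 73.4 CPM in chase against 204 and 114 in pulse. Uqcrq of complex III (201 in chase, 305 in pulse) and Ndufa4 (418 in chase, 630 in pulse) completed the 8. Just outside the 1.5-fold line lay Cox5b at 0.672 and Uqcrb at 0.677, and just inside it Ndufa4 at 0.664 and Atp5e at 0.663.

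Core subunits were spread over the range. Sdha, the flavoprotein of complex II, had a ratio of 1.05 (0.991 to 1.12), and its partner Sdhc had 0.964, whereas Sdhb, the iron-sulfur subunit, had 0.729 and Sdhd 0.745. Ndufv1, which binds NADH in complex I, had 0.946 and Ndufs1 0.866, while the core subunits Ndufs3, Ndufv2 and Ndufs8 had 0.785, 0.740 and 0.722. Uqcrc2 of complex III had 0.934 and Uqcrc1 0.789, while Uqcrfs1, the Rieske iron-sulfur protein, had 0.719. The ATP synthase alpha and beta subunits, Atp5a1 and Atp5b, had 0.899 and 0.851, the highest ratios of complex V. Cox4i1, the common form of subunit 4, had 0.935 with 526 CPM in chase and 562 in pulse. Cox7a2l, which takes part in joining complexes III and IV into supercomplexes, was the highest ratio in complex IV, 1.14 (1.08 to 1.19), with 141 in chase and 124 in pulse. The members therefore did not shift by 1 common factor: the range ran from 0.549 for Cox5a to 1.14 for Cox7a2l, with counting intervals that do not overlap.

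Other features of the libraries moved with the nuclear members. The 84 ribosomal protein genes, another large set of short and abundant nuclear transcripts, summed to 74369 CPM in chase CAR cells and 93683 in pulse CAR cells, a ratio of 0.794. Of 6 immediate early genes, which respond to handling and to signals alike, 2 were called higher, where 6.72% of all genes were, and the set summed to 23982 in chase and 16685 in pulse (1.44). Median depth was 6517.5 UMIs in chase CAR cells and 7907.5 in pulse CAR cells. In cells of 5000 to 10000 UMIs the nuclear ratio was 0.768 and the mitochondrial ratio 0.985. Across 5 depth ranges the nuclear ratio ran between 0.743 and 0.891. The mitochondrial ratio ran from 0.888 in cells of 2500 to 5000 UMIs to 1.05 in cells of 10000 to 20000. It was 1.27 in the few deeper cells, 7 in chase and 28 in pulse, so it was not near 1 at every depth. The part of ribosomal content and of handling in the result was not tested.

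Genes that work beside the module in CAR cells were read from lists, against the 6.52% of all genes called lower and 6.72% called higher. Single calls among 12 or 13 genes are near that share. Of 7 tested carriers and exchange genes, 2 were called lower and 0 higher: Cycs, the cytochrome c that links complexes III and IV, had a ratio of 0.609 and Slc25a4, the adenine nucleotide translocator, 0.629. The list summed to 1061 CPM in chase and 1538 in pulse (0.690). Of 13 tricarboxylic acid cycle genes none was called in either direction, and the sum was 688 in chase and 801 in pulse (0.858), with Mdh2 at 0.697 and Suclg2 at 1.02. Of 12 cytochrome oxidase assembly genes 1 was called lower and 0 higher, Cox18 (8.91 in chase, 23.5 in pulse), and the median log2 ratio of the list was -0.31. Of 13 genes that copy or express mitochondrial DNA 1 was called higher and 0 lower: Polg2, the accessory subunit of the mitochondrial DNA polymerase, held 50.4 in chase and 32.1 in pulse. Tfam, which packages mitochondrial DNA and starts its transcription, held 29.1 and 23.6 (1.23, not called), and that list's median log2 ratio was 0.03. Of 6 tested nuclear regulators of the module 1 was called higher and 0 lower: Ppargc1b, a coactivator, held 5.35 in chase and 2.24 in pulse. Nrf1, Gabpa, Esrra and Yy1 lay between 0.918 and 1.08, and Ppargc1a stayed under 50 UMIs in CAR cells. The carriers and the assembly genes thus lay on the lower side with the nuclear subunits, as did the tricarboxylic acid cycle sum, without calls. The median gene for the expression of mitochondrial DNA lay near 1. No difference between lists was tested.

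The mitochondrial members did not move as 1 block, although all but mt-Nd6 are cut from 1 long precursor transcript. In CAR cells mt-Nd3 held 962 CPM in chase and 689 in pulse (1.40), mt-Co3 5829 and 4637 (1.26), mt-Nd1 1803 and 1500 (1.20) and mt-Nd2 1870 and 1621 (1.15). By contrast mt-Nd4l held 576 in chase and 993 in pulse (0.580, 0.568 to 0.592), the only mitochondrial member called in CAR cells, against the 6.52% of all genes called lower. Its joint-message partner mt-Nd4 held 2407 and 2844 (0.846). mt-Atp6 (6897 in chase, 6999 in pulse), mt-Co2 (4697 and 4765), mt-Co1 (4327 and 4687) and mt-Cytb (4195 and 4562) had ratios between 0.920 and 0.986. mt-Atp8 held 227 in chase and 262 in pulse and mt-Nd5 393 and 449. mt-Nd6, the only member on the light strand (chrM:13552-14070, minus strand), held 30.5 and 27.8, and its interval included 1. The sum near 1 in CAR cells was therefore a balance of genes above and below it.

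The direction of 5 mitochondrial genes recurred in the 11 classes with at least 50 cells in both libraries, which hold different cells of the same 2 libraries. mt-Nd1, mt-Nd2, mt-Co3 and mt-Nd3 had a chase over pulse ratio above 1 in 11 of 11 classes, and mt-Nd4l below 1 in 11 of 11. mt-Nd4l was the lowest of the 13 in all 11 classes, between 0.543 in macrophages and 0.887 in erythroid cells. mt-Nd3 was the highest in 8 of 11 classes, reaching 2.22 in erythroid cells. In genome order, mt-Nd3 (chrM:9459-9806) and mt-Nd4l (chrM:9877-10173) are neighbours on the same strand, and lay at opposite ends of the ratios. The highest gene was not the same in every class: mt-Nd1, mt-Co3 or mt-Nd6 was highest in the remaining 3 classes.

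**Figure D2:**
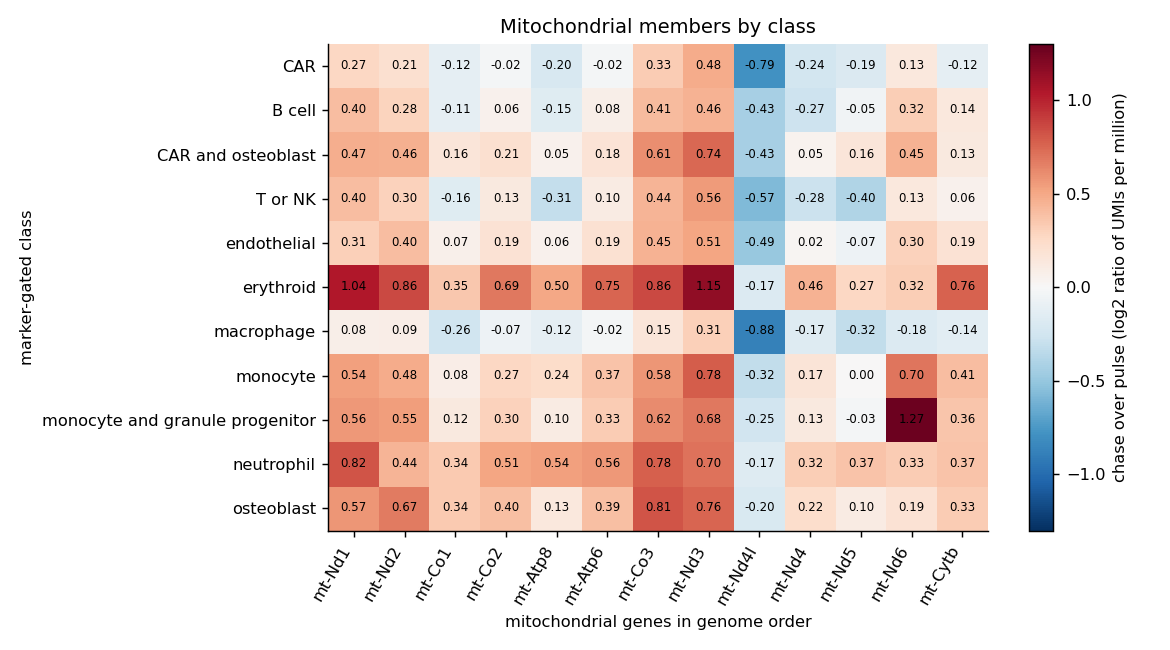
Log2 ratio of CPM, chase over pulse, for the 13 mitochondrial members (columns, in genome order) in 11 marker-gated classes (rows). The mt-Nd4l column is negative in every row and the columns of mt-Nd1, mt-Nd2, mt-Co3 and mt-Nd3 are positive in every row.

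Across classes the lower nuclear level in chase was found in stroma and endothelium and in macrophages, and not in lymphoid, erythroid or neutrophil cells. Cells past both the CAR and the osteoblast gate held 15451 nuclear CPM in chase and 19617 in pulse (0.788), and osteoblasts 14571 and 16766 (0.869). Endothelial cells held 14869 and 16889 (0.880), and macrophages 15796 and 18275 (0.864). Monocytes (0.967) and the monocyte and granule progenitor class (0.983) lay near 1. B cells held 26771 in chase and 20898 in pulse (1.28), erythroid cells 28586 and 23390 (1.22), T or NK cells 19264 and 17222 (1.12) and neutrophils 12438 and 11477 (1.08). In erythroid cells the median ratio over all genes was itself 1.15, beside 1.23 for nuclear members. It was 0.955 in B cells, 1.005 in T or NK cells and 0.982 in neutrophils. In macrophages it was 0.933, in endothelial cells 0.961, in osteoblasts 1.02 and in cells past both gates 0.985. The difference between classes was not tested, since each class has 1 value per library. The B cell markers differed too: Ms4a1 held 253 CPM in chase B cells and 1302 in pulse B cells, Cd79a 1458 and 2777, and Vpreb3 1626 and 1255, and their part in the result was not tested. In 3 of the 4 classes with a nuclear ratio above 1 the ribosomal protein ratio was also above 1 (B cells 1.05, erythroid cells 1.17, neutrophils 1.10), and in T or NK cells it was 0.790. In all 7 classes with a nuclear ratio below 1 the ribosomal protein ratio was below 1 as well.

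Few members were called in most classes, and no difference between classes in which members were called was tested. In cells past both the CAR and the osteoblast gate, 5 of 88 tested nuclear members were called lower and 0 higher, where 5.66% of all genes were called lower and 5.43% higher: Ndufa4l2, Uqcrfs1, Ndufab1, Atp5g1 and Ndufa4. In endothelial cells the 2 called lower were Ndufaf4 and Uqcrfs1 (background 3.25% in each direction), and in osteoblasts the 1 called lower was Cox8b (background 4% lower, 5.61% higher). In macrophages the only nuclear call was Cox4i2, higher (background 3.57% higher, 4.91% lower). Monocytes and the monocyte and granule progenitor class had 0 nuclear calls, where 3.68% and 2.47% of all genes were called higher and 1.91% and 1.85% lower. In B cells 13 of 81 were called higher and 0 lower, where 11.8% of all genes were called higher and 17.8% lower, among them Sdhd (2.18), Uqcr11 (1.85) and Cox5a (1.51). In erythroid cells 8 of 81 were called higher and 0 lower (background 12% higher, 4.34% lower), among them Ndufa5 at 1.82. In neutrophils 3 were called higher, Ndufaf3, Ndufa10 and Ndufab1 (background 8.41% higher, 6.05% lower), and in T or NK cells 1, Cox5a (background 8.94% higher, 6.86% lower). Of 81 nuclear members tested in CAR cells, the class past both gates, osteoblasts, endothelial cells and macrophages, 63 had a ratio below 1 in all 5. The same count was not made over all genes, so the background of this overlap is not known. In these classes, in that order, the median ratios over all genes were 0.982, 0.985, 1.02, 0.961 and 0.933. Cox7a2l was above 1 in all 5, between 1.03 and 1.14. Cox5a was below 1 in all 5, but in B cells it held 513 CPM in chase and 340 in pulse, and in T or NK cells its ratio was 1.63. Mitochondrial calls outside CAR cells were higher in chase with 1 exception, mt-Nd4l in macrophages: 7 members in erythroid cells, 3 each in osteoblasts, neutrophils and the monocyte and granule progenitor class, 2 in cells past both gates and 1 in monocytes. mt-Nd3 was among the higher calls in each of these classes.

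The balance between the genomes shifted towards the mitochondrial side in most classes. Mitochondrial UMIs per nuclear UMI were higher in chase than in pulse in 9 of 11 classes. Osteoblasts held 2.82 in chase and 1.81 in pulse, cells past both gates 2.81 and 1.85, endothelial cells 2.83 and 2.16, erythroid cells 1.40 and 1.08 and neutrophils 1.15 and 0.877. In osteoblasts this came from both sides, since summed mitochondrial members held 41104 in chase and 30307 in pulse (1.36). These sums were taken after the mitochondrial filter, which had removed 50 chase and 75 pulse osteoblasts. In neutrophils the mitochondrial sum was 14259 in chase and 10066 in pulse (1.42), beside a nuclear ratio of 1.08. B cells (1.75 in chase, 2.08 in pulse) and T or NK cells (1.87 in chase, 1.96 in pulse) were the 2 exceptions. Macrophages were the only class of the 11 whose mitochondrial sum was lower in chase, 41997 against 43724 (0.961).

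**Figure D3:**
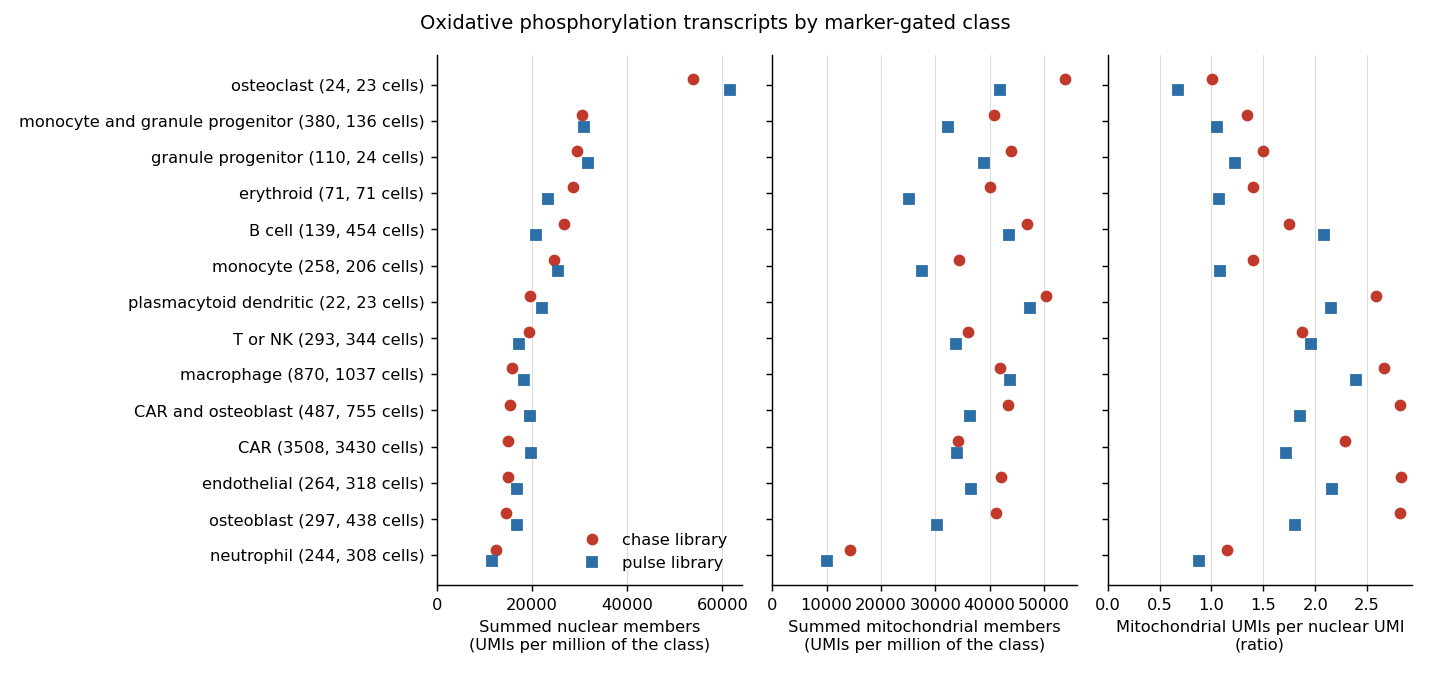
Summed nuclear members, summed mitochondrial members and their ratio in each marker-gated class, with the chase library as red circles and the pulse library as blue squares, and cell numbers given as chase, pulse. Classes are ordered by the nuclear level in chase; of the classes plotted, osteoclasts hold the highest nuclear level and neutrophils the lowest level of both genomes.

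Cell by cell, the ratio spread widely within each class. In CAR cells the median cell held 2.15 mitochondrial UMIs per nuclear UMI in chase (10th to 90th percentile 1.34 to 4.23) and 1.62 in pulse (1.09 to 3.18), so the distributions overlapped over most of their range. The nuclear share of a CAR cell's UMIs had a median of 1.49% in chase and 1.95% in pulse, and the mitochondrial share 3.21% and 3.19%. After cells were thinned to 2000 UMIs, nuclear and mitochondrial shares were almost unrelated among CAR cells, with Spearman's rho of 0.09 in 3344 chase cells and 0.06 in 3350 pulse cells. In erythroid cells the shares went together, with rho of 0.74 in 71 chase cells and 0.77 in 69 pulse cells, and in neutrophils rho was 0.58 in 224 and 0.42 in 292. These are descriptions over cells of 1 library that share its handling.

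**Figure D4:**
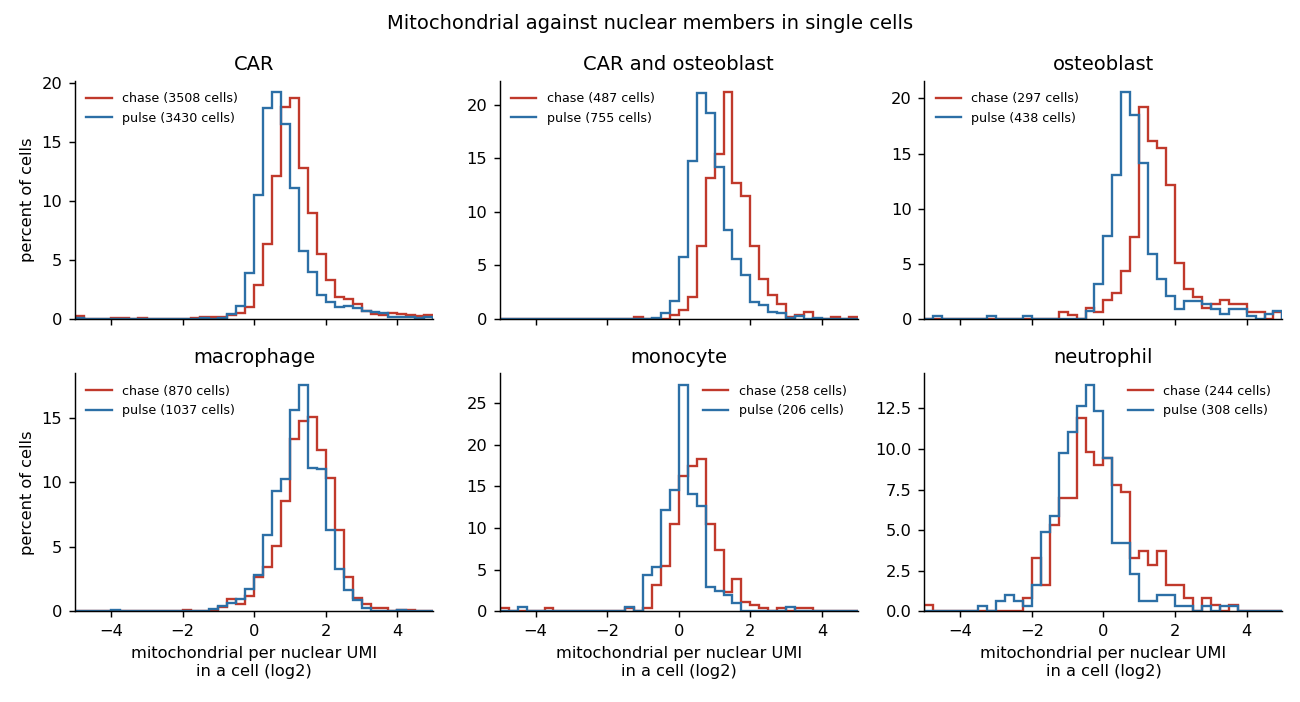
Percent of cells by the log2 ratio of mitochondrial to nuclear UMIs in a cell, chase in red and pulse in blue, for 6 classes. The chase median was above the pulse median in all 6 classes. In CAR cells, cells past both gates and osteoblasts, medians were 2.15 against 1.62, 2.56 against 1.75 and 2.74 against 1.77. In macrophages, monocytes and neutrophils they were 2.81 against 2.43, 1.36 against 1.07 and 0.912 against 0.715.

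Classes were also set against CAR cells inside each library. The monocyte and granule progenitor class held the most nuclear UMIs of the 11 classes, 30393 CPM in chase and 30910 in pulse, or 2.03 and 1.56 times CAR cells. In it 44 of 89 nuclear members were called higher than CAR in both libraries, where 21.8% of all genes were higher and 40.4% lower, and 2 were called lower, the isoforms Cox4i2 and Ndufa4l2. Cox5a was 5.45 times CAR in chase and 3.12 times in pulse, and Atp5g1 3.84 and 2.53 times. Monocytes (24 of 89 called higher and 3 lower in both libraries, background 18% and 34.6%) and erythroid cells (17 higher and 1 lower, background 14.4% and 36.8%) stood above CAR too, with Uqcrfs1 at 3.32 and 2.73 times CAR in monocytes and at 3.59 and 2.61 times in erythroid cells. As a mean over cells the nuclear ratio of erythroid cells to CAR was 1.44 in chase but 0.857 in pulse, against 1.91 and 1.18 from the sums, and that of B cells 1.40 and 0.919, against 1.79 and 1.06. Ribosomal protein genes were also high in the progenitor class, at 282263 CPM in chase and 287947 in pulse. CAR cells, cells past both gates, macrophages, endothelial cells, osteoblasts and T or NK cells held between 14571 and 19795 nuclear CPM and changed order between the libraries, so their order is not fixed by these data.

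The order of single members differed from the order of the sums. In both libraries, macrophages had 6 nuclear members called higher than CAR and 12 lower (background 21.2% and 32.4%), endothelial cells 5 and 8 (18.8% and 19.6%), T or NK cells 3 and 6 (15.3% and 29.3%) and B cells 10 and 2 (17.4% and 29.6%). Macrophages, with nuclear sums of 1.05 and 0.923 times CAR, held 488 CPM of Cox5a in chase and 636 in pulse, 4.08 and 2.92 times CAR, and 125 and 148 of Sdhc, 2.33 and 2.66 times CAR. Endothelial cells held 523 and 453 of Ndufc2, a complex I subunit, 3.15 and 2.09 times CAR. Cox7a2l was 1.76 and 1.94 times CAR in endothelial cells, 1.86 and 1.94 times in macrophages and 2.25 and 2.48 times in T or NK cells. Ndufb2 lay below CAR in T or NK cells (0.458 and 0.348) and in monocytes (0.657 and 0.665). In osteoblasts Ndufa1 was above CAR (1.92 and 1.70 times) and Ndufa4 below (0.482 and 0.406), with 202 and 256 CPM against 418 and 630 in CAR cells. In osteoblasts 2 nuclear members were called higher and 13 lower in both libraries, where 5.92% and 58.7% of all genes were.

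Per UMI of the class, neutrophils held the least of both genomes among the 11 classes. Their nuclear sum was 0.830 times CAR in chase and 0.580 in pulse, and their mitochondrial sum 0.417 and 0.296 times CAR. The nuclear direction turned under median of ratios scaling, to 1.81 and 1.47, where the mitochondrial ratios were 0.908 and 0.749. The median nuclear member, at 0.718 and 0.478 times CAR, lay above the median of all genes, at 0.413 and 0.356. Of the 13 mitochondrial members 12 were called lower in both libraries, where 57.8% of all genes were called lower and 10.1% higher, so a lower value alone is common in this class. mt-Nd2 was lowest relative to CAR, with 300 CPM in chase and 221 in pulse against 1870 and 1621. mt-Co1 was highest relative to CAR, with 3551 and 2796 against 4327 and 4687, ratios of 0.821 and 0.597. Of nuclear members 32 were called lower, and Ndufb7 was the only one called higher, 2.18 times CAR in chase and 1.66 in pulse. Ndufaf4, a complex I assembly factor, had 0.618 CPM in chase neutrophils and no UMI in pulse neutrophils, which allows up to 1.55 CPM (3 counts), against 25.0 and 35.7 in CAR cells. A few granule genes take a large share of neutrophil UMIs: Ngp alone held 41520 CPM in chase and 38467 in pulse.

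Osteoclasts, the bone-resorbing giant cells, were under the 50-cell minimum with 24 chase and 23 pulse cells, and are described because their level stood out after values were seen. Their nuclear members held 53837 CPM in chase and 61538 in pulse, 3.59 and 3.11 times CAR. Of 89 nuclear members 77 were called higher than CAR in both libraries, against 15% of all genes, and 1 lower, Cox4i2, against 29%. Uqcrfs1 was 8.64 and 6.92 times CAR and Cox5a 9.63 and 7.18 times. Their mitochondrial sum was 1.58 times CAR in chase and 1.23 in pulse, so mitochondrial UMIs per nuclear UMI, 1.001 and 0.682, were the lowest of the classes plotted. The mitochondrial filter had removed 7 cells past the osteoclast gate in each library, beside 24 and 23 kept. For CAR cells it had removed 135 and 128, beside 3508 and 3430 kept. It thus took a larger share of osteoclasts. Their gate markers were clear for Acp5 (6237 and 5359 CPM) and Ctsk (4418 and 3730), whereas Calcr was at 0 in chase and 1.63 in pulse, and Oscar at 10.6 and 8.13.

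Minor isoforms of complex IV differed between classes by larger factors than the sums did. Cox6a2 (chr7:128205435-128206387), the form of subunit 6a known from heart and skeletal muscle, held 1615 CPM in plasmacytoid dendritic cells of chase (1402 to 1850) and 1508 in those of pulse (1298 to 1743). It was detected in 21 of 22 chase cells and 20 of 23 pulse cells, at median depths of 6109.5 and 4676 UMIs, another class under the 50-cell minimum and singled out after its values were seen. In CAR cells, at 6517.5 and 7907.5 UMIs, it was detected in 2 of 3508 and 4 of 3430 cells, with 0.085 and 1.05 CPM. Of the 29 UMIs in pulse CAR cells 15 came from 1 cell. Cells outside the classes described, most of them mixed or past no gate, held 42.3% of all Cox6a2 UMIs in chase and 43.7% in pulse. The common form Cox6a1 held 242 and 214 CPM in the same dendritic cells. The skeletal muscle marker list was at 7.80 and 8.24 CPM in them, with 6 of 7 markers at 0 in both libraries, and the plasmacytoid markers summed to 5952 and 4862. Over all nuclear members 7 were called higher and 3 lower than CAR in both libraries (background 7.21% and 10.1%).

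Cox6b2 (chr7:4751792-4753094), known as the testis form of subunit 6b, was highest in erythroid cells, with 208 CPM in chase (182 to 236) and 189 in pulse (158 to 226). These were 19.0 and 19.1 times the level in CAR cells, where it held 10.9 and 9.93. It was detected in 40 of 71 chase and 23 of 71 pulse erythroid cells, with at most 22 UMIs in a cell. Monocytes held 33.4 and 34.9 and the monocyte and granule progenitor class 33.2 and 42.3. In osteoblasts, at median depths of 17943 and 21145 UMIs, it had 2 UMIs in each library, against medians of 9798 and 6118 in erythroid cells. The common form Cox6b1 held 583 and 516 CPM in erythroid cells and 280 and 369 in CAR cells, so Cox6b2 stayed the minor form in both.

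Cox4i2 (chr2:152754173-152765037), the oxygen-responsive form of subunit 4, was highest of the 11 classes in CAR cells, cells past both gates and macrophages. It was lower in osteoblasts and in the monocyte and granule progenitor class. The 5 chase cells past only the pericyte or smooth muscle gate held more, 718 CPM from 20 UMIs (438 to 1108). Among cells past that gate and others, Cox4i2 was detected in 22 of 23 in chase and 3 of 3 in pulse, with 104 and 14 UMIs. These cells were seen after the values were known. CAR cells held 24.6 CPM in chase (22.7 to 26.7) and 27.6 in pulse (25.7 to 29.6), and it was detected in 13.6% and 17.8% of them. Macrophages held 28.2 in chase (24.8 to 32.0) and 16.01 in pulse (13.4 to 19.0), a chase over pulse ratio of 1.76, the only nuclear member called in that class. Cells past both gates held 20.2 and 20.8 CPM and osteoblasts 6.39 and 8.61, detected in 17.5% and 20.4% and in 9.76% and 14.6% of cells. The monocyte and granule progenitor class held 5.08 and 2.78 CPM, detected in 10% and 5.15% of cells. Its median depths were 21026.5 and 20529.5 UMIs. Endothelial cells held 1.45 and 1.19, detected in 1.14% and 0.943% of cells at median depths of 6815 and 6912.5 UMIs, against 6517.5 and 7907.5 in CAR cells. T or NK cells had no UMI in either library, which allows up to 2.31 and 2.77 CPM (3 counts). Inside CAR cells, those with at least 2 UMIs of the osteogenic phosphatase Alpl held more Cox4i2 than those without in the pulse library, 40.0 against 23.5 CPM (1.70, 1.44 to 2.01). In chase the values were 32.4 against 23.2 (1.40, 1.14 to 1.70), not called. The CAR marker list summed to 643 and 628 CPM in macrophages, against 31845 and 25427 in CAR cells.

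Ndufa4l2 (chr10:127514967-127517154), the paralogue of Ndufa4 known as a hypoxia-induced gene, was highest in a few cells past the pericyte or smooth muscle gate, and of the 12 classes plotted highest in osteoblasts. The 5 chase cells past that gate alone held 47 UMIs of it, or 1686 CPM (1239 to 2243). The 23 chase and 3 pulse cells past that gate and others held 876 and 951 CPM, detected in 22 of 23 and 3 of 3. These cells were seen after the values were known. Cells outside the classes described held 57.7% of all its UMIs in chase and 12.0% in pulse. Osteoblasts held 21.0 CPM in chase (17.3 to 25.2) and 25.9 in pulse (22.7 to 29.5), against 4.07 and 3.61 in CAR cells, 5.16 and 7.19 times. It was detected in 51 of 297 chase and 101 of 438 pulse osteoblasts, against 81 of 3508 and 84 of 3430 CAR cells and 2 of 870 and 3 of 1037 macrophages, at median depths of 9769 and 7365 UMIs in macrophages. Cells past both gates lay between, at 6.002 and 9.98, and it was called lower in chase there, with 33 and 96 UMIs. Of the 96 pulse UMIs 21 came from 1 cell, and without that cell, an alternative chosen after seeing the data, the ratio was 0.767 (0.493 to 1.17) and the call was lost. The pericyte or smooth muscle markers summed to 37.2 and 47.4 CPM in osteoblasts and to 24.0 and 20.2 in CAR cells, and their part in the level was not tested. Ndufa4 itself went the other way, lower in osteoblasts than in CAR cells. Osteoblasts thus held more of the paralogue and less of Ndufa4 than CAR cells in both libraries.

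Cox8b (chr7:140898945-140900446), a muscle and brown fat form of subunit 8 in mice, was found in osteoblasts, with 6 UMIs in 4 of 297 chase cells and 59 UMIs in 27 of 438 pulse cells, or 1.10 and 6.52 CPM. CAR cells had none, which allows up to 0.127 and 0.108 CPM (3 counts). All kept cells together held 10 Cox8b UMIs in chase and 76 in pulse. Of the chase UMIs 4 came from 1 cell past no gate. Of the pulse UMIs 16 lay outside the classes described, 12 of them in mixed cells past the osteoblast gate. Osteoblasts held 3.47 and 3.09 CPM of the skeletal muscle marker list, with 5 of 7 and 4 of 7 markers at 0. The mature adipocyte list summed to 2539 and 2532 in osteoblasts, with 5 of its 7 markers at 0 in each library. The part of muscle or fat cell RNA in the Cox8b level was not tested. Cox7a1, the muscle form of subunit 7a, held 21.2 and 39.0 in osteoclasts and 2.38 and 2.53 in CAR cells. Cox7b2 had no UMI in CAR cells of either library, with the same limits as Cox8b, and Cox8c had none in chase and 1 in pulse.

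**Figure D5:**
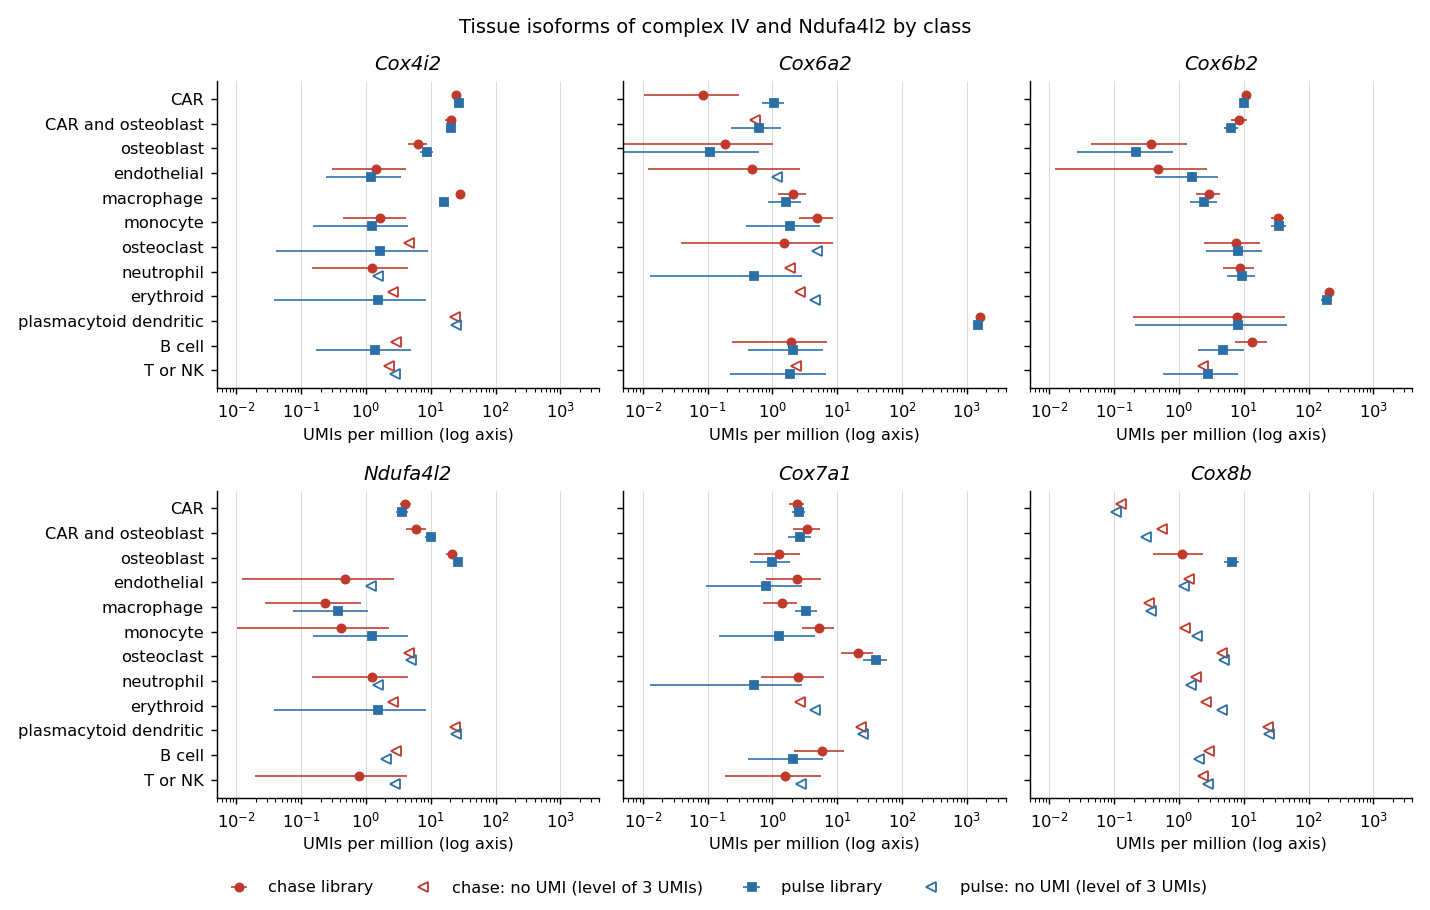
CPM (log axis) of 6 minor isoforms in 12 classes, chase as red circles and pulse as blue squares with exact 95% Poisson intervals; open triangles mark the level of 3 UMIs where none was found. Of the classes plotted, Cox6a2 is highest in plasmacytoid dendritic cells, Cox6b2 in erythroid cells, Ndufa4l2 and Cox8b in osteoblasts and Cox7a1 in osteoclasts. Cox4i2 is highest in CAR cells, cells past both gates and macrophages, and lower in osteoblasts.

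Because the study set out to find stromal progenitors with both fat and bone traits, Alpl-positive CAR cells were set against Alpl-negative ones inside each library. The Alpl-positive cells, 548 in chase and 593 in pulse, held more mitochondrial UMIs than the Alpl-negative cells, 2374 and 2346: 41053 CPM against 32463 in chase (1.26) and 40244 against 32158 in pulse (1.25). All 13 mitochondrial members had a ratio above 1 in both libraries, and none was called, where 4.49% of genes in chase and 6.41% in pulse were called higher and 3.27% and 4.46% lower. Single ratios ran in chase from 1.19 for mt-Nd5 to 1.32 for mt-Co3, and in pulse from 1.18 for mt-Nd5 to 1.37 for mt-Atp8. Nuclear members differed little, 15497 against 14898 in chase (1.04) and 21084 against 19496 in pulse (1.08), and the only nuclear calls were Cox4i2 and Ndufa4l2, both higher, in pulse. Ribosomal protein genes were also higher in Alpl-positive cells, at 78375 against 73993 CPM in chase and 106683 against 90545 in pulse. Their part in the result was not tested. Alpl-positive cells were deeper, with medians of 7605 against 6258.5 UMIs in chase and 8966 against 7665.5 in pulse. When cells were first thinned to 2000 UMIs the mitochondrial ratios were 1.43 and 1.42.

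Cells past both the CAR and the osteoblast gate leaned the same way, with mitochondrial sums 1.27 times CAR in chase and 1.07 times in pulse and nuclear sums of 1.03 and 0.991 times. No member was called higher or lower in both libraries there, where 3.3% of genes were called higher and 2.27% lower. In osteoblasts, by contrast, the mitochondrial sum was 1.20 times CAR in chase and 0.890 times in pulse, so no direction was shared by the libraries.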

How the data were processed

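The deposited files are UMI count matrices, 1 per library, holding whole numbers with no normalisation. Cell Ranger 6.0.2 is named per the file headers and 2.1.1 per the submitters' processing notes, which give build mm10. The annotation release was not found in the labels or headers. Cells were kept with at least 500 genes, 1000 UMIs and under 10% mitochondrial UMIs (8335 chase, 9212 pulse), after removal of 110 and 178 doublets by Scrublet (scanpy 1.11.5). A cell joined a class with at least 3 of its markers at 2 or more UMIs, and classes needed 50 cells. UMIs were summed per class and library and given per 1000000 UMIs. Ratios carry exact 95% intervals conditional on the total. Depth was 82939659 UMIs in chase and 89009901 in pulse. Positions are GENCODE vM21. The calling rule was run on simulated Poisson counts with no spread between cells, mice or libraries, the model its intervals assume. It therefore cannot show how calls would hold between replicate libraries. Members, lists and tests were chosen with earlier results of these data known. Named genes were all mitochondrial members, the isoforms, core subunits, members called in CAR cells, and per complex or class those with the highest level or the highest and lowest ratios. Others named were chosen after their values were seen. Alternatives were 5% and no mitochondrial filters, Scrublet calls kept, looser and stricter gates and other denominators. Means over cells, median of ratios scaling and thinning to 2000 UMIs were also used.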

Additional observations from a re-analysis of the deposited data

Results flagged for a closer look

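In 4 classes the summed nuclear members lay on the other side of 1 from CAR cells, whose chase over pulse ratio was 0.757: B cells at 1.28, erythroid cells at 1.22, T or NK cells at 1.12 and neutrophils at 1.08. The median ratios over all genes in these classes, in that order, were 0.955, 1.15, 1.005 and 0.982. In macrophages the summed mitochondrial members lay at 0.961, against 1.005 in CAR cells. Each group is 1 library, and the difference between classes was not tested. Ms4a1, a B cell marker, held 253 CPM in chase B cells and 1302 in pulse B cells. B cells numbered 139 in chase and 454 in pulse, at median depths of 4095 and 2194 UMIs.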

How the results depend on the processing

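No paired analysis was possible because each group is 1 library. Of 624 ratios under alternatives 582 kept their direction and 42 did not, and 9 moved by over 1.5 times. All 264 isoform levels stayed inside their counting intervals. They were recomputed only without the mitochondrial filter or with Scrublet calls kept, which add cells back. Their dependence on gates, denominators and depth was not tested. The nuclear ratio in CAR cells (0.757) was 0.766 with 4 gate markers, 0.741 without mitochondrial and ribosomal protein genes in the denominator, 0.770 as a mean over cells and 0.772 under median of ratios scaling. With CAR cells of 5000 to 10000 UMIs it was 0.768, and with mixed cells counted as CAR 0.780, both chosen after seeing the data. The mitochondrial ratio (1.005) lay on both sides of 1. It was 1.02 without the mitochondrial filter, 0.992 under 5%, 0.987 with a gate of 1 UMI and 1.02 with 4 markers. It was 0.984 without mitochondrial and ribosomal genes in the denominator, 0.993 over cells, 1.02 by median of ratios and 0.988 thinned. In the depth range it was 0.985, and with mixed cells 1.03. The count of 8 nuclear members called lower became 5 by median of ratios, 5 in the depth range and 3 with mixed cells. Classes above CAR in nuclear level in both libraries numbered 4, but 2 over cells (monocytes and the monocyte and granule progenitor class) and 8 by median of ratios, under which neutrophils in pulse turned to 1.47 from 0.580; this scaling follows the typical gene of a class in place of its total.

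The Alpl ratios moved without changing direction. For mitochondrial members in chase (1.26) they were 1.28 without the filter, 1.12 under 5%, 1.20 with a gate of 1 UMI, 1.34 with 4 markers, 1.28 with each of the narrower denominators, 1.21 over cells, 1.23 by median of ratios and 1.43 thinned. In pulse (1.25) they were 1.28, 1.14, 1.28 and 1.26 under the same filters and gates, 1.26 and 1.29 with the denominators, 1.23 over cells, 1.20 by median of ratios and 1.42 thinned. For nuclear members in chase (1.04) they were 1.03 under 5%, 1.05 and 1.06 with the denominators, 1.03 over cells, 1.01 by median of ratios and 1.08 thinned. In pulse (1.08) they were 1.07 with a gate of 1 UMI, 1.09 and 1.11 with the denominators, 1.07 over cells, 1.04 by median of ratios and 1.06 thinned. The causes were not tested. Depth limits the minor isoforms, where 3 UMIs are the floor.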

Other observations

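Granule progenitor cells reached 50 cells in chase only, with 110 cells, and held 29444 nuclear CPM, 1.96 times chase CAR cells, and 43992 mitochondrial CPM, 1.29 times. Plasma cells, 30 in chase and 10 in pulse, held 10633 and 14104 nuclear and 22008 and 26339 mitochondrial CPM, and are given as values only. Cells past no gate numbered 541 in chase and 744 in pulse and held 1.81 and 1.65 mitochondrial UMIs per nuclear UMI.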
